A study of Homo sapiens with 14 samples.

Results

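RNA-Seq was performed on MDA-MB-231 cells, an established human triple-negative breast cancer (TNBC) line of mesenchymal character, and on 6 lines edited from them. The 12 edited libraries, of 14 in all, came from 2 lines of each of 3 genotypes, numbered KO1 and KO2 for SAP30 and for MLL1, and DKO1 and DKO2 for the double loss of SIN3A and SIN3B, at 2 libraries a line. They were set, as 6 equally weighted lines, against the 2 libraries of the parental culture, and the question here was what the 6 lines had in common whichever gene had been targeted. All cells were grown in DMEM with fetal bovine serum and carry the label of no treatment.

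The edited lines were made with a Cas9 and sgRNA vector, brought in by transient transfection or by lentivirus (the route of each line is not given in the sources used here), followed by puromycin selection and isolation of single knockout cells, several of which were expanded and mixed to make a line. The labels name no vector, sgRNA, or selection for the parental culture, which stands here as 1 culture with 2 libraries. Whatever vector delivery, selection, or expansion from few cells did to all 6 lines, and whatever was particular to the parental culture, cannot be told apart from a common effect of losing any of the targeted genes. The 6 lines also share these 2 parental libraries, so a value that happened to be high there lowers every line together. Nothing in the labels says that the 2 libraries of a line came from separate cultures, and the p-values then measure the spread between libraries, which may be technical.

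SIN3A and SIN3B are the scaffolds of a corepressor complex that carries the histone deacetylases HDAC1 and HDAC2, and SAP30 is one of its core subunits. MLL1, encoded by KMT2A and listed as MLL in these data, is a methyltransferase that places methyl groups on lysine 4 of histone H3, a mark of active promoters. One protein thus belongs to a machine best known for silencing and another to a machine best known for activation. Changes found in all 6 lines are therefore not tied by the design to either activity.

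Values are TPM, the share of a library's transcripts scaled for gene length, although the deposited table names them RPKM, since each library adds up to 1000000. The libraries held, by whole reads worked back from these values, from 18414443 to 23161788 reads, with a median of 21647951. Of the table, 13540 genes reached 1 TPM in 2 or more of the 14 libraries and entered a limma fit on log2(TPM + 0.5), on which scale the change of low genes is understated. Calls required an adjusted p (Benjamini-Hochberg) under 0.05 together with a difference of at least 1.5-fold.

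The cells matched their label by most of the mesenchymal markers examined. VIM, which encodes vimentin, stood at 5829 and 5741 TPM in the parental libraries and from 5892 to 8805 TPM in the edited ones. ZEB1, a repressor of epithelial genes, stood at 63.2 and 62.7 TPM in the parental libraries and from 53.7 to 71.9 TPM in the edited ones. SPARC, also on that marker list, was at 0.31 and 0.20 TPM in the parental libraries and at most 0.90 TPM elsewhere. CAV1, another marker on it, was called lower, from 659.4 and 638.4 TPM to between 355.8 and 513.9 TPM. The estrogen receptor ESR1 and the progesterone receptor PGR were at most 0.19 and 0.14 TPM in any library. Of the markers of other cell types, DCN of fibroblasts, CDH5 of endothelial cells, and CD3E of T cells were at most 0.06, 0.03, and 0.08 TPM in any library. Others were present, with the 6 fibroblast markers summing to 5.08 and 5.05 TPM in the parental libraries and 5.57 to 13.54 TPM in the edited ones, mostly COL1A1, which was called higher. The 5 endothelial markers summed to 1.64 and 2.01 against 1.79 to 4.08 TPM, mostly PECAM1, and the 6 lymphoid and myeloid markers to 180.97 and 184.98 against 165.72 to 293.79 TPM, mostly CD68, with LYZ called higher. The part of such cells in the results was not tested.

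The targeted genes were examined next in every library. SAP30 stood at 78.9 and 82.8 TPM in the parental libraries, at 3.13, 3.72, 4.96, and 2.75 TPM in the 4 SAP30-KO libraries, and between 66.1 and 109.6 TPM in the other 8 edited libraries. Its mean difference over the 6 lines, -1.42 on the log2 scale, therefore came from the SAP30-KO lines, and it was 0.03 without them. SIN3A stood at 43.1 and 45.4 TPM in the parental libraries and was not lower in the SIN3A+SIN3B-DKO libraries, at 60.6, 62.5, 55.1, and 55.2 TPM. SIN3B fell in both SIN3A+SIN3B-DKO lines, from 75.1 and 77.4 TPM to 50.2, 49.0, 49.7, and 43.5 TPM. A Cas9 cut can leave the transcript in place, and these levels do not check for loss of the protein.

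MLL stood at 56.7 and 49.0 TPM in the parental libraries and at 17.4, 15.8, 25.8, and 27.7 TPM in the MLL1-KO libraries. It also fell in both SAP30-KO lines, where it stood at 31.6, 23.0, 35.4, and 31.3 TPM, and was called lower in 4 of the 6 lines. KMT2A lies on the long arm of chromosome 11, where neighboring genes were lower too. With the running median of 51 neighboring genes subtracted, its mean difference was -0.15 in place of -0.76 and was no longer called.

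In the mean of the 6 edited lines 1168 genes were lower than in the parental culture (8.63% of the genes tested) and 726 were higher (5.36%), and the median over all genes tested was -0.01 on the log2 scale. Of these calls 61.7% were thus lower, a split that became 1044 lower and 1003 higher (51% lower) after quantile normalization. Of the 1168 lower genes, 150 passed the filter on low values only through the parental libraries. Of the 726 higher genes, 201 passed it only through the edited libraries. The filter favored the direction of such genes. Each line taken alone had between 1024 and 2210 genes lower and between 813 and 1387 higher.

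Genes called in the same direction in every one of the 6 lines numbered 362 lower (2.67% of those tested) and 128 higher (0.945%). Of these, 124 lower genes passed the filter on low values only through the parental libraries and 21 higher genes only through the edited ones, and such genes had to differ. A further 446 of the lower and 363 of the higher genes were called in 4 or 5 lines, and 360 and 235 in 3 or fewer. All 12 edited libraries lay below both parental libraries for 902 of the 1168 lower genes, and above both for 442 of the 726 higher genes. Among all genes tested the groups were separated in this way for 14.5% (edited below) and 10.5% (edited above). The mean was therefore carried by all lines for only part of the genes, and for some no line outside a single genotype was called. Outside the MLL1-KO lines no line was called in that direction for 156 of the lower and 64 of the higher genes. The same held for 7 and 7 genes outside the SAP30-KO lines, and for 10 and 11 outside the SIN3A+SIN3B-DKO lines. A gene called in the mean but in no line at all would count toward each of these. A line was even called in the opposite direction for 34 of the lower and 32 of the higher genes.

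**Figure D1:**
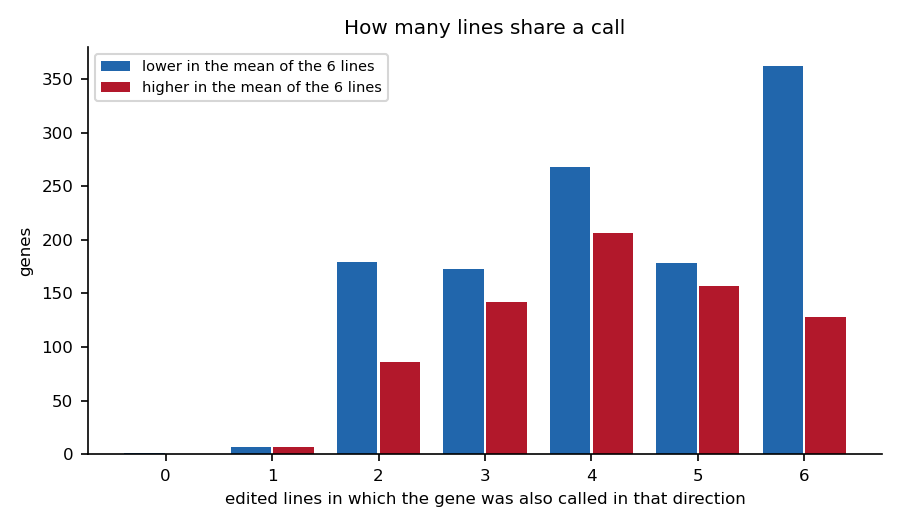
Number of genes (y axis) called lower (blue) or higher (red) in the mean of the 6 edited lines, by the number of lines in which the same gene was also called in that direction (x axis). The bar at 6 lines holds 362 of the 1168 lower genes and 128 of the 726 higher genes.

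The 362 genes lower in every line made up 1.41% and 1.42% of all TPM in the parental libraries, and between 0.40% and 0.66% in the edited ones. Their median level was 8.29 TPM in the parental culture and 1.81 TPM in the edited lines. The 128 genes higher in every line held 0.32% of all TPM in each parental library and from 0.58% to 0.77% in the edited ones, with median levels of 4.66 and 14 TPM. These sums and levels describe genes chosen for their difference and are no test of it. For the genes called in every line, the 2 parental libraries lay a median of 0.10 apart on the log2 scale.

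Among the genes lower in every line, ranked by their least changed line, a long noncoding RNA came first, TFF2 next, and TFF1 and TFF3 further down. LOC100505817, now LINC02582, a noncoding RNA on 18q, was at 223.0 and 210.5 TPM in the parental libraries. In the edited libraries it ranged from 0 to 3.79 TPM with a median of 0.21, and its mean difference was -8.00 ± 0.24 (SE) on the log2 scale (limma, adjusted p = 1.8e-09). TFF2, TFF1, and TFF3 encode small secreted peptides that protect mucous epithelia, and TFF1 is a classical estrogen-induced gene of luminal breast cancer. TFF2 was at 43.1 and 45.0 TPM in the parental libraries and at 0 in 11 of the 12 edited libraries, with a highest value of 0.36 TPM in SAP30-KO1. TFF1 was at 11.6 and 16.5 TPM in the parental libraries and at 0 in 11 of the 12 edited libraries, with 0.24 TPM in 1 library of SIN3A+SIN3B-DKO2. TFF3 was at 5.67 and 5.82 TPM in the parental libraries and listed at 0 in all 12 edited libraries. The groups did not overlap for any of these genes, which the ranking by the least changed line nearly ensures. Among all genes tested 14.5% were separated in this direction.

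The 3 trefoil genes lie side by side on 21q, and their neighbors moved with them. On GRCh37, TFF3 spans chr21:43731777-43735519, TFF2 chr21:43766466-43771106, and TFF1 chr21:43782391-43786644, all on the minus strand. The next genes toward the telomere that were expressed in the parental culture, SLC37A1, which encodes a sugar-phosphate transporter, and PDE9A, which encodes a cyclic GMP phosphodiesterase, were also lower in every line. SLC37A1 went from 4.41 and 5.26 TPM to between 0 and 0.65 TPM. PDE9A went from 8.04 and 6.57 TPM to between 0 and 0.11 TPM. ABCG1 and TMPRSS3, which were too low to be tested, were at 0.31 and 0.16 TPM and at 0.56 and 1.06 TPM in the parental libraries, and listed at 0 in all 12 edited libraries. WDR4, the next gene beyond PDE9A in the table, was at 6.37 and 5.89 TPM in the parental libraries and from 6.29 to 8.20 TPM in the edited ones, and was not called. Of the 6 tested genes in this window of 680 kb, 5 were therefore lower in every line, and the block ended between PDE9A and WDR4. This window was chosen after the values were seen.

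**Figure D2:**
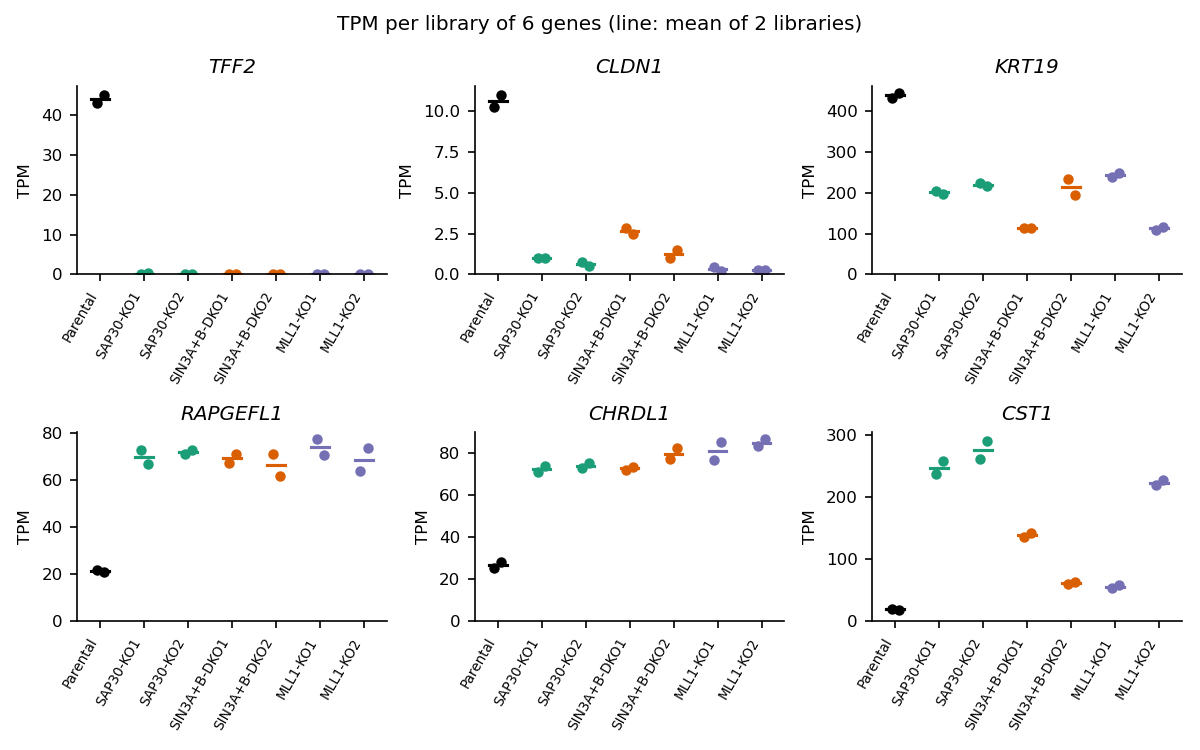
TPM (y axis, from 0) of 6 genes in each of the 14 libraries (x axis, by line), with 1 point per library and a line at the mean of the 2 libraries. TFF2 falls from 43.1 and 45.0 TPM to near 0 in all edited libraries, RAPGEFL1 and CHRDL1 stand at a like level in all 6 edited lines, and CST1 is higher in all of them but by unequal amounts.

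Other genes at the top of the lower list were close to silent in the edited lines. SCARA3, a scavenger receptor that answers oxidative stress, was at 23.2 and 23.7 TPM in the parental libraries and at 0 in 11 of the 12 edited libraries, with a highest value of 0.08 TPM. DAPK1, a calmodulin-regulated kinase that promotes cell death, was at 7.33 and 6.92 TPM in the parental libraries and at most 0.05 TPM in the edited ones. TSPAN8, a tetraspanin of epithelial tumors, was at 38.03 and 40.69 TPM and then between 0 and 1.75 TPM with a median of 0.61. COCH, which encodes a secreted protein of the inner ear, was at 6.71 and 6.74 TPM and listed at 0 in all 12 edited libraries. H19, an imprinted noncoding RNA, was at 9.16 and 9.77 TPM and then between 0 and 0.46 TPM with a median of 0.17. MIR675, which lies within H19 and shares its reads, went from 11.4 and 19.6 TPM to 0 in 10 of the 12 edited libraries and to 3.53 and 1.91 TPM in the other two. SUSD3, FAM109B (now PHETA2), and GCM1, a transcription factor of the placenta, were at 8.999 and 7.679, 6.80 and 7.41, and 6.04 and 5.84 TPM in the parental libraries, and no edited library held more than 0.13 TPM of any of them.

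Some genes were expressed in the parental culture alone. With 2 parental libraries such a gene passes the filter through the parental libraries only, and the count is a description. Genes lower in every line, with at least 1 TPM in both parental libraries and at most 3 reads in each edited library, numbered 37. Small RNA genes and names turned into dates were left out. Of the 37, 6 (ARHGEF16, COCH, TPTE, TFF3, CYTL1, and RARRES2) were listed at 0 in all 12 edited libraries. No gene met the mirror condition. Against a floor of 3 reads in each library, SCARA3 was at least 101-fold lower, DAPK1 at least 95.5-fold, TFF2 at least 70.3-fold, and PDE9A at least 36.5-fold. The 37 genes, which were chosen after their values were seen, included several families of near-identical copies, MAGEA6 and MAGEA12, BAGE2 to BAGE5, and PRSS1 and PRSS2, among which reads could be split. MAGEA6, MAGEA12, and CSAG1, cancer-testis genes that are silent in most adult tissues, lie together on Xq. MAGEA12 went from 2.79 and 2.28 TPM to at most 0.08 TPM, whereas its neighbor CETN2 was higher in 4 of the 6 lines.

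The genes higher in every line changed by smaller amounts than the leading lower genes, and several were at nearly the same level in all 6 lines. RAPGEFL1, which encodes a guanine nucleotide exchange factor-like protein, stood at 21.7 and 20.6 TPM in the parental libraries. In the edited libraries it ranged from 61.5 to 77.4 TPM with a median of 71.0, and the difference was 1.70 ± 0.06 (SE) on the log2 scale (limma, adjusted p = 5.69e-09). The 6 lines did not pass the test of a difference among themselves for this gene (F test, adjusted p = 0.518) and spanned only 0.16 on the log2 scale. CHRDL1, a secreted antagonist of bone morphogenetic proteins, stood at 25.2 and 28.1 TPM in the parental libraries and from 71.0 to 86.7 TPM, with a median of 76.0, in the edited ones. The groups did not overlap for either gene, which the ranking by the least changed line nearly ensures. Among all genes tested 10.5% were separated in this direction.

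CXorf57, now RADX, a single-strand DNA-binding protein of the replication fork, went from 2.24 and 1.86 TPM to between 8.98 and 14.3 TPM with a median of 11.8. CORO2B, an actin-binding coronin, went from 5.57 and 5.32 TPM to between 16.3 and 53.4 TPM with a median of 24.8, the highest values being in MLL1-KO2. ACOT6, an acyl-CoA thioesterase, went from 15.7 and 17.4 TPM to between 41.9 and 71.3 TPM with a median of 55.2. ST6GALNAC5, a sialyltransferase, went from 2.94 and 2.39 TPM to between 7.42 and 15.2 TPM. The libraries of these 4 genes did not overlap between the edited and parental groups, which again follows from how they were ranked (10.5% of all genes tested).

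PTPN22, a protein tyrosine phosphatase known from lymphocytes, went from 1.49 and 1.37 TPM to between 3.71 and 24.0 TPM. SPINK1, a trypsin inhibitor, was listed at 0 in both parental libraries and stood between 0.28 and 6.14 TPM, with a median of 1.91, in the edited ones. SRPX2, a secreted sushi-repeat protein, went from 4.32 and 4.63 TPM to between 11.2 and 27.7 TPM, again with MLL1-KO2 highest. C15orf48, the noncoding LOC401074 (now LINC00960), and the microRNA host entry MIR1204, which lies within PVT1 and whose few reads are imprecise, completed the 14 genes, each between 1.13 and 2.69 higher on the log2 scale in each line. CXorf57, CHRDL1, SRPX2, and COL4A5 all lie on Xq, and 10 of the 14 differed among the lines by 1.5-fold or more in the F test.

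**Figure D3:**
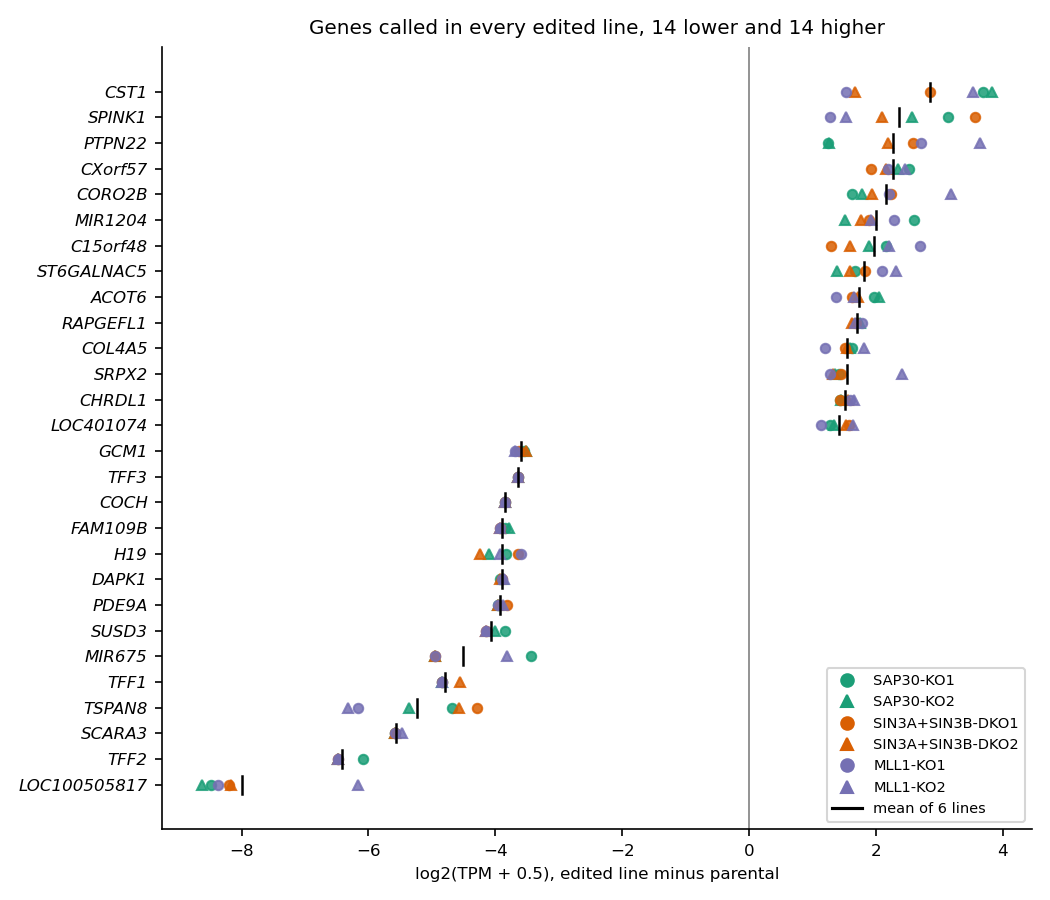
Difference from the parental culture on the log2(TPM + 0.5) scale (x axis) of the 14 lower and the 14 higher genes (y axis) that were called in every line and had the largest difference in their least changed line. Each symbol is 1 edited line and each black bar the mean of the 6 lines, and the lower genes reach from -3.60 to -8.00 and the higher ones from 1.42 to 2.85.

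Promoters were examined for what these genes share in sequence. RefSeq promoters on GRCh38.p14, from 250 bases before to 50 after the start, were matched for 10406 of the 13540 genes tested, 259 of the 362 lower genes, and 90 of the 128 higher genes. A ratio of observed to expected CpG over 0.6, a usual mark of a CpG island, was held by 83.2% of all matched promoters, by 69.1% of those of the lower genes, and by 60% of those of the higher genes. Both directions thus held more CpG-poor promoters than the table as a whole, and both types were found among the leading genes. A promoter of each type is shown for each direction, chosen after the values were seen, in lower case with every CG dinucleotide in capitals and each on the strand of its gene.
TSPAN8, lower, chr12:71157950-71158249, minus strand: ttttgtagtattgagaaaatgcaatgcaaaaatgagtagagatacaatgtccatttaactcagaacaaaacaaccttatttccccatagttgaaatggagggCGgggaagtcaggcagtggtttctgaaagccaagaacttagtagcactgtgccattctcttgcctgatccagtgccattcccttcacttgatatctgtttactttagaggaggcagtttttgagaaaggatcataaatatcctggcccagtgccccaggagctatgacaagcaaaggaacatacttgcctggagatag
DAPK1, lower, chr9:87497617-87497916, plus strand: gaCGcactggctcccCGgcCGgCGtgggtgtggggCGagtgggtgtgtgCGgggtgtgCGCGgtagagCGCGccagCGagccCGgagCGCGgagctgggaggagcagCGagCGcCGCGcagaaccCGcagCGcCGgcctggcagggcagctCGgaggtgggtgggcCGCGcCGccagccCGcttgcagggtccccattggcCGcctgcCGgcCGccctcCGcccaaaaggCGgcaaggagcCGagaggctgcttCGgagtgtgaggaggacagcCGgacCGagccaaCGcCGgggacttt
CHRDL1, higher, chrX:110795768-110796067, minus strand: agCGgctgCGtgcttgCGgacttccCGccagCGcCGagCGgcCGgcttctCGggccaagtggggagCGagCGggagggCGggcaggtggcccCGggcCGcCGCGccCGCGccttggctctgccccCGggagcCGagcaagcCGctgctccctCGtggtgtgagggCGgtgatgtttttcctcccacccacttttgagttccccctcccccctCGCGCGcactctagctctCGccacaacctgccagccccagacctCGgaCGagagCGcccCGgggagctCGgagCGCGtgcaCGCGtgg
SRPX2, higher, chrX:100643949-100644248, plus strand: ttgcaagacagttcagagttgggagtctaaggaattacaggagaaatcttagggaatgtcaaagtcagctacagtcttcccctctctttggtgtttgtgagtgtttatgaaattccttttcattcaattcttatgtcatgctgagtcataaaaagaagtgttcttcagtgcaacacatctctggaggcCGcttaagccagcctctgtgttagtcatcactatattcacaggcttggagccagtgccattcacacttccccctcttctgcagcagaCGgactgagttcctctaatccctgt

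These promoters held 1 CG in TSPAN8, 37 in DAPK1, 36 in CHRDL1, and 2 in SRPX2, with ratios of 0.07, 0.89, 0.89, and 0.14. The TATA motif TATAAA, on either strand, occurred in 5.69% of all matched promoters, in 12% of the lower genes, and in 10.0% of the higher genes. The AP-1 motif TGANTCA, which reads alike on both strands, occurred in 4.57% of all, in 4.25% of the lower, and in 11.1% of the higher genes, the last being 10 of 90 promoters. The GC box GGGCGG, on either strand, occurred in 70.1% of all, 67.2% of the lower, and 53.3% of the higher genes. These are shares of letters in a window, and no factor was measured.

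Most of the epithelial and luminal genes tested were lower, in a list chosen with earlier results of these data known. Its share is a description and no test. Of 29 such genes, 20 were tested, and 17 were lower in the mean of the 6 lines (85%, against 8.63% of all genes tested) and none was higher, with a median of -1.41 against -0.01. Of the 17, 4 passed the filter on low values only through the parental libraries and had to be lower. In every line 11 of the 20 were lower, among them the 3 trefoil factors. EPCAM, CDH1, KRT19, ELF3, SPINT1, KRT7, KRT8, KRT18, CLDN4, CLDN7, and GATA3 are named from this list after their values were seen, as are VEGFA, NOG, and CST4 from others. AGR2, a protein disulfide isomerase of secretory epithelium, stood at 160.6 and 174.6 TPM in the parental libraries, between 13.3 and 34.2 TPM in the SAP30-KO and SIN3A+SIN3B-DKO libraries, and at 0 in the 4 MLL1-KO libraries. CLDN1, a tight junction protein, stood at 10.2 and 11 TPM in the parental libraries and between 0.18 and 2.87 TPM, with a median of 0.86, in the edited ones. Its difference was -3.06 ± 0.15 (SE) on the log2 scale (limma, adjusted p = 3.75e-08).

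Adhesion and keratin genes showed the same direction in the mean, but not all of them in every line. EPCAM, an epithelial adhesion molecule, went from 19.2 and 19.1 TPM to between 5.33 and 12.6 TPM. CDH1, which encodes E-cadherin, was low in the parental libraries, at 1.07 and 1.25 TPM, and at most 0.28 TPM in the edited ones. KRT19 went from 432.0 and 444.4 TPM to between 109.2 and 247.4 TPM. ELF3, an epithelial transcription factor, went from 5.61 and 6.07 TPM to at most 2.18 TPM, and SPINT1, an inhibitor of epithelial serine proteases, went from 6.57 and 7.48 TPM to at most 2.99 TPM. The groups did not overlap for any of these 5 genes, chosen with their values known, as for 14.5% of all genes tested. KRT8 and KRT18, the keratin pair of simple epithelia, were called lower in 4 lines each. KRT7 was called lower in 4 lines and higher in 1, and the claudins CLDN4 and CLDN7 were lower in 3 and 2 lines. GATA3, a luminal transcription factor, was not called, at 12.82 and 11.02 TPM in the parental libraries and from 8.16 to 17.3 TPM in the edited ones.

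The 7 luminal markers used to check the cells summed to 465.3 and 475.9 TPM in the parental libraries and to between 123.3 and 268.8 TPM in the edited ones, most of it KRT19, and 3 of the 4 tested were lower. In bulk RNA, fewer cells of an epithelial type and less RNA of these genes per cell cannot be told apart. 

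**Figure D4:**
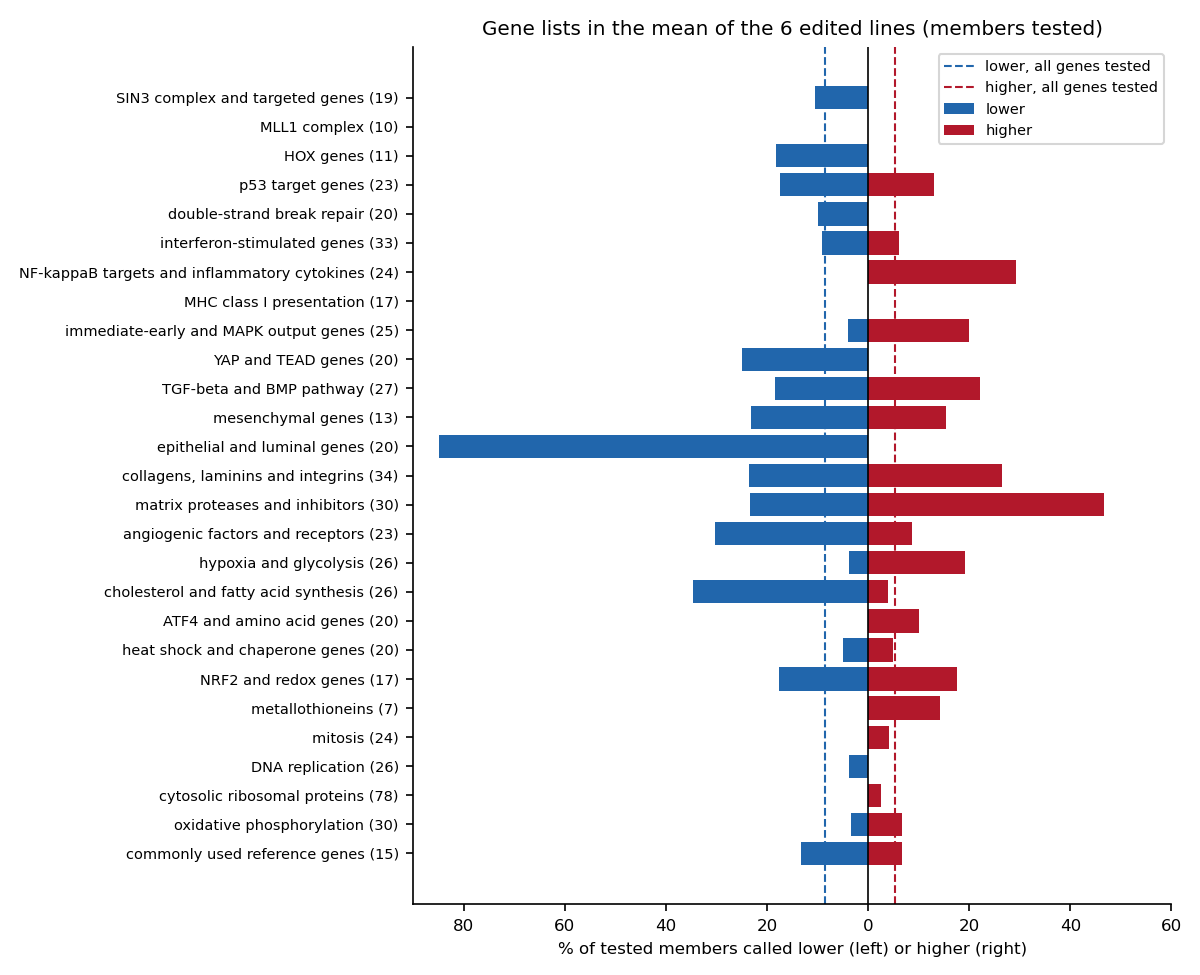
Share of the tested members of each gene list (y axis, number tested in parentheses) called lower (blue, left) or higher (red, right) in the mean of the 6 edited lines, in percent (x axis). Dashed lines mark the shares among all genes tested, 8.63% lower and 5.36% higher, and the epithelial and luminal list stands out with 85% lower. The lists were chosen with earlier results of these data known.

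Mesenchymal genes did not move as 1 group. Of 13 tested, 3 were lower (23.1%) and 2 higher (15.4%), against 8.63% and 5.36% of all genes tested, with a median of -0.04. TNC, a matrix glycoprotein, was higher in every line, at 18.8 and 17.8 TPM in the parental libraries and from 37.7 to 405.3 TPM, with a median of 49.99, in the edited ones. ACTA2, smooth muscle actin, was lower in every line, from 7.06 and 6.63 TPM to between 0.53 and 2.57 TPM. CDH11, a mesenchymal cadherin, was higher in 5 lines, from 35.2 and 36.6 TPM to a median of 110.2 TPM. ACTA2 overlaps FAS on chromosome 10, and reads in the overlap could not be assigned without strand, on which the sources used here say nothing for the counting.

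Genes of the extracellular matrix and its proteases changed often and in both directions. Of 30 proteases and inhibitors tested, 14 were higher (46.7%) and 7 lower (23.3%), with a median of 0.51. Among all genes tested 5.36% were higher and 8.63% lower. Of the 14, 4 passed the filter on low values only through the edited libraries, and 2 of the 7 only through the parental ones. The direction of these was set by the filter. CST1, a secreted inhibitor of cysteine proteases, stood at 19.4 and 18.2 TPM in the parental libraries and from 52.5 to 290.2 TPM, with a median of 180.2, in the edited ones. CST2, its close paralog, went from 5.01 and 4.12 TPM to between 9.41 and 81.3 TPM. CST4 was higher in 5 lines, from 15.9 and 15.7 TPM to between 13.0 and 148.3 TPM. These genes lie together on 20p and are near-identical, and reads could be split among them, while CST3 beside them was not called, at 523.1 and 503.3 TPM against 482.7 to 811.6 TPM.

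TIMP3, a tissue inhibitor of metalloproteinases, was among the most abundant genes lower in every line. It stood at 818.7 and 826.2 TPM in the parental libraries and from 124.1 to 427.3 TPM, with a median of 237.5, in the edited ones, a difference of -1.83 ± 0.03 (SE; limma, adjusted p = 6.92e-11). MMP2, a gelatinase, went from 1.63 and 1.97 TPM to at most 0.51 TPM. Collagens, laminins, and integrins split into 8 lower (23.5%) and 9 higher (26.5%) of 34 tested, against 8.63% and 5.36% of all genes tested. Of the 8, 1 passed the filter only through the parental libraries, and 1 of the 9 only through the edited ones. The basement membrane chain COL4A1 was lower in every line, from 90.5 and 90.7 TPM to between 27.8 and 49.0 TPM, and LAMA4 from 6.98 and 6.49 TPM to between 0.50 and 3.90 TPM. COL4A5, another chain of the same collagen type, was higher in every line, from 1.54 and 1.64 TPM to between 4.07 and 6.88 TPM.

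Angiogenic factors and receptors were lower more often than higher, with 7 of 23 lower (30.4%) and 2 higher (8.7%). Among all genes tested 8.63% were lower and 5.36% higher. Of the 7, ADM2 and NOTCH3 passed the filter on low values only through the parental libraries and had to be lower. ADM2, a peptide of the calcitonin family that dilates vessels, was at 3.81 and 3.68 TPM in the parental libraries and from 0.34 to 0.94 TPM in the edited ones, and the 6 lines did not pass the F test of a difference among themselves (adjusted p = 0.571). PDGFD, a platelet-derived growth factor, went from 8.32 and 8.15 TPM to between 1.07 and 5.04 TPM with a median of 2.61. NOTCH3, a receptor of the vessel wall, went from 1.52 and 1.52 TPM to at most 0.67 TPM. RDX, which encodes the membrane-actin linker radixin and is not on the angiogenic list, went from 140.2 and 136.7 TPM to between 37.3 and 74.4 TPM. These 4 genes and CLDN1 were lower in every line.

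PDGFB, which the study followed with these 5 genes, was lower in the SAP30-KO and SIN3A+SIN3B-DKO lines alone. It was at 1.62 and 1.83 TPM in the parental libraries, at most 0.38 TPM in those lines, and from 1.68 to 3.15 TPM in the MLL1-KO libraries. The study chose these 6 genes on these samples, and their direction here is not independent evidence. VEGFA, the main growth factor of blood vessels, was higher in every line, from 72.1 and 73.4 TPM to between 104.0 and 247.7 TPM, and PGF, its placental relative, was higher in 4 lines. RDX and PDGFD lie on 11q, and their differences were -0.81 and -0.92 in place of -1.38 and -1.50 with the median of neighboring genes subtracted, both still called.

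Genes of signaling pathways changed in parts. Among 27 genes of TGF-beta and BMP signaling, 5 were lower (18.5%) and 6 higher (22.2%), against 8.63% and 5.36% of all genes tested. Of the 6, 1 passed the filter only through the edited libraries. ID3, a target gene of BMP signals, was lower in every line, from 6.17 and 5.76 TPM to between 0.22 and 1.18 TPM. SMAD7, an inhibitor of TGF-beta signaling, was higher in every line, from 2.71 and 4.02 TPM to between 5.66 and 25.8 TPM. NOG, a secreted BMP antagonist, was higher in 5 lines, from 43.3 and 44.6 TPM to between 55.2 and 144.9 TPM. Of 20 YAP and TEAD genes, 5 were lower (25.0%) and none higher, and F3, which encodes tissue factor, was the 1 lower in every line, from 445.1 and 417.7 TPM to between 101.1 and 277.0 TPM.

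Of 24 NF-kappaB targets and inflammatory cytokines, 7 were higher (29.2%, against 5.36% of all genes tested) and none lower (against 8.63%). The median was 0.35, but no member was higher in every line. Of the 7, 1 passed the filter only through the edited libraries. TNFAIP3, a feedback inhibitor of NF-kappaB, was higher in 4 lines, from 2.76 and 2.77 TPM to between 3.74 and 7.40 TPM. Among 25 immediate-early and MAPK output genes, 5 were higher (20%) and 1 lower, and 1 of the 5 passed the filter only through the edited libraries. ETV4, a transcription factor downstream of MAPK signals, was higher in every line, from 56.9 and 54.9 TPM to between 82.7 and 114.2 TPM. Interferon-stimulated genes stayed near these shares of all genes tested, with 3 of 33 lower (9.09%) and 2 higher (6.06%). IFITM1, an antiviral membrane protein, was however lower in every line, from 63.2 and 57.8 TPM to between 5.30 and 35.7 TPM. None of 17 genes of MHC class I presentation was called, with a median of -0.30.

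Metabolic and stress genes were less uniform. Of 26 genes of cholesterol and fatty acid synthesis, 9 were lower (34.6%) and 1 higher (3.85%), against 8.63% and 5.36% of all genes tested. MVD, an enzyme of the mevalonate pathway, went from 73.9 and 72.2 TPM to between 30.4 and 47.3 TPM, and ACACA, which makes malonyl-CoA, from 66.5 and 65.6 TPM to between 25.4 and 43.5 TPM, both lower in every line. With the median of neighboring genes subtracted, MVD on 16q and ACACA on 17q were no longer called, at -0.56 and -0.47. Of 26 genes of hypoxia and glycolysis, 5 were higher (19.2%) and 1 lower, and 1 of the 5 passed the filter only through the edited libraries. NDRG1, a hypoxia-induced gene, was higher in 5 lines, from 124.8 and 128.0 TPM to a median of 316.9 TPM.

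Other lists are read against the same shares of all genes tested, 8.63% lower and 5.36% higher. Of 20 ATF4 and amino acid genes, 2 were higher, and TRIB3, a pseudokinase induced by stress, was higher in every line, from 26.3 and 27.9 TPM to between 36.5 and 89.1 TPM. Of 17 NRF2 and redox genes, 3 were lower and 3 higher (17.6% each), and 1 of the higher genes passed the filter only through the edited libraries. In 20 heat shock and chaperone genes 1 was lower (HSPA1A, whose near-identical copy HSPA1B was not called) and 1 higher (HSPA6). HSPA6 passed the filter only through the edited libraries. Of 7 metallothionein genes 1, MT1X, was higher. Of 11 HOX genes tested, HOXB3 and HOXB9 were lower (18.2%) and none higher, and neither was lower in every line. HOXB3 passed the filter only through the parental libraries. HOXB9 was at -1.88 in the MLL1-KO lines and -0.18 in each other genotype, and was not called without the MLL1-KO lines. The other subunits of the SIN3 complex and all 10 genes of the MLL1 complex were not called.

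Lists of growth and of DNA damage are set here against 8.63% lower and 5.36% higher among all genes tested. Of 24 mitosis genes 1 was higher, CDC20, an activator of the anaphase-promoting complex, from 389.6 and 395.5 TPM to between 495.5 and 711.3 TPM, and of 26 DNA replication genes 1 was lower, GINS2. With the median of neighboring genes subtracted, neither was called, at 0.25 and -0.14. Among 78 cytosolic ribosomal protein genes, RPL10 and RPL9 were higher, and among 30 genes of oxidative phosphorylation SDHD was lower and NDUFA1 and COX7B were higher. RPL10, NDUFA1, and COX7B lie on Xq, SDHD on 11q, and RPL9 on 4p, and none of the 5 was called with neighboring genes subtracted, at 0.26, 0.08, 0.22, -0.20, and 0.57. Of 23 p53 target genes, 4 were lower (17.4%) and 3 higher (13%). FAS, a death receptor, was lower in all 6 lines and PHLDA3 in 4, while PLK3 was higher in all 6 and CDKN1A, the p21 inhibitor of the cell cycle, in 3. PLK3 was not called with neighboring genes subtracted, at 0.58, nor CDKN1A without the MLL1-KO lines, at 0.42. Of 20 genes of double-strand break repair, NBN and ATM were lower, and neither was called with neighboring genes subtracted, at -0.35 and -0.04. NBN went from 79.7 and 72.5 TPM to between 38.02 and 54.11 TPM.

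Common reference genes were not exempt. PGK1, a glycolytic enzyme, was higher, from 602.6 and 621.7 TPM to between 848.8 and 1282 TPM. TFRC, the transferrin receptor, was lower, from 459.2 and 437.6 TPM to between 219.3 and 328.1 TPM. PGK1 lies on Xq and was no longer called with neighboring genes subtracted, at 0.28. ACTB, GAPDH, and TBP differed by -0.03, 0.16, and 0.18 and were not called.

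The position of the genes was therefore examined, for the 13260 genes (97.9%) with a place on GRCh37. On 36 of 41 chromosome arms the median difference lay between -0.2 and 0.2. On Xq 106 of 268 genes tested were higher (39.6%, against 5.36% of all) and 10 lower, with a median of 0.51. The medians of the 6 lines on Xq were all positive, at 0.59 and 0.57 in the SAP30-KO pair, 0.51 and 0.52 in the SIN3A+SIN3B-DKO lines, and 0.37 and 0.41 in the MLL1-KO lines. This arm held 1.98% of the tested genes and 14.6% of all higher calls. The short arm, Xp, had a median of 0.06. On 4p the median was 0.27, with 82.3% of genes above 0 and lines from 0.27 to 0.40 except MLL1-KO1 at -0.19.

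On 16q 76 of 264 genes were lower (28.8%, against 8.63% of all) and 4 higher, with a median of -0.43. The lines differed little there, with -0.42 in all 4 lines outside the MLL1-KO pair and -0.52 and -0.44 in the MLL1-KO lines. On 13q the median was -0.29, with all lines between -0.21 and -0.38. CDH1 and MMP2 lie on 16q and COL4A1 on 13q.

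On 11q 121 of 505 genes were lower (24.0%), but the lines were not alike. The medians were -0.54 and -0.53 in the SAP30-KO lines, -0.04 and -0.07 in the SIN3A+SIN3B-DKO lines, and -0.28 and -0.06 in MLL1-KO1 and MLL1-KO2. Between 100 and 120 Mb all 6 lines were lower, with medians of -0.84 and -0.84 in the SAP30-KO lines, -0.31 and -0.22 in the SIN3A+SIN3B-DKO lines, and -0.95 and -0.38 in the MLL1-KO lines. Between 60 and 80 Mb both SAP30-KO lines stood at -0.45 and -0.43 and the other 4 lines between -0.01 and 0.07. DNA was not measured in these libraries, and what the arms share was not tested.

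**Figure D5:**
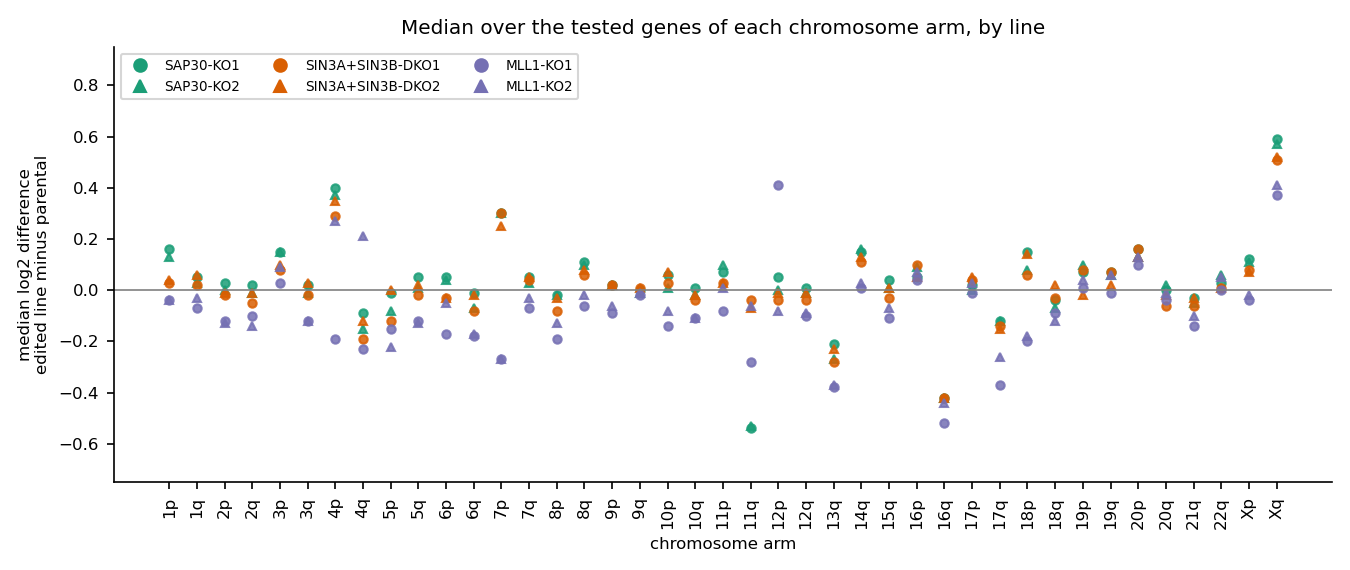
Median difference from the parental culture on the log2 scale (y axis) over the tested genes of each chromosome arm (x axis), with 1 symbol per edited line. All 6 lines lie between 0.37 and 0.59 on Xq and between -0.42 and -0.52 on 16q, while 11q ranges from -0.54 to -0.04.

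Most calls nevertheless lay elsewhere. Among the 12503 genes tested off 11q, 16q, and Xq, 961 were lower (7.69%) and 608 higher (4.86%), and 309 and 100 of the genes called in every line lay there. Of the leading genes, the trefoil factors, TSPAN8, DAPK1, CORO2B, RAPGEFL1, and CST1 are on none of 11q, 16q, and Xq. With the running median of neighbors subtracted, 889 genes were lower and 584 higher, and 300 and 95 in every line, where the same positioned genes had given 1144, 712, 352, and 124. CXorf57, CHRDL1, SRPX2, and COL4A5 on Xq were still called, at 1.60, 0.91, 0.91, and 0.92.

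The 6 lines were also compared with each other, by an F test in the same fit, whose estimate of the spread includes the parental libraries. Of the genes tested, 5644 (41.7%) differed among the 6 lines. Of the genes called in the mean, 881 of 1168 lower and 515 of 726 higher differed among lines. Of the genes called in every line, 224 of 362 lower and 73 of 128 higher differed in size between lines, and for 138 and 55 no difference among lines was called, which does not show that the lines were alike. AGR2 and TNC were extreme cases of a common direction with unequal size. AGR2 was -3.24 in SAP30-KO, -2.75 in SIN3A+SIN3B-DKO, and -8.39 in MLL1-KO lines, and TNC 1.17, 1.42, and 4.01 (F test among the 3 genotypes, adjusted p = 6.3e-10 and 7.28e-12).

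For other genes the mean of 6 lines hid opposite or absent changes. ENG, the TGF-beta coreceptor endoglin, was at 65.8 and 65.7 TPM in the parental libraries, between 0.41 and 5.42 TPM in the SAP30-KO and SIN3A+SIN3B-DKO libraries, and at 53.4, 51.4, 115.1, and 112.6 TPM in the MLL1-KO libraries. BMP2, a bone morphogenetic protein, was at 0.26 and 0.54 TPM in the parental libraries, at most 0.12 TPM in the SAP30-KO and SIN3A+SIN3B-DKO libraries, and from 17.1 to 40.8 TPM in the MLL1-KO libraries. CSF3, a granulocyte growth factor, was at 1.57 and 1.61 TPM in the parental libraries, at most 2.44 TPM in those 2 genotypes, and from 31.3 to 43.9 TPM in the MLL1-KO libraries. Such genes are not common to the edited lines, although the mean calls them.

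With each line averaged to 1 value and the spread taken among the 6 lines, fewer genes passed. The fit called 93 genes lower (0.687% of those tested) and 23 higher (0.17%), and 91 and 19 of these were among the genes called in every line. Of the 93 lower genes, 72 had passed the filter on low values only through the parental libraries, so their passing is set by that choice and lends no support. ID3, not one of these, was among the lower genes, and RAPGEFL1, CHRDL1, ACOT6, CXorf57, and ETV4 among the higher ones, by limma with 5 residual degrees of freedom. Many genes described above as called in every line were not called in this fit. CLDN1, AGR2, TIMP3, PDGFD, RDX, NOTCH3, CST1, CORO2B, and TNC were among them. The parental culture is 1 value in this fit and is assumed to vary as the edited lines do. An exact permutation of the parental label over the 7 cultures cannot give a p below 0.143, so no gene could pass such a test.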

How the data were processed

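RNA of MDA-MB-231 cells and edited lines was extracted with RNeasy columns and made into KAPA mRNA HyperPrep libraries. The submitters' processing notes name FastQC 0.11.2, TopHat, featureCounts, and hg19, and the use of strand in counting is not given in the sources used here. The deposited table, named RPKM by the authors, holds TPM values, since each library sums to 1000000. For 18519 of 18519 genes above 0 (100.0%), some number of whole reads matched the TPM steps within 0.02 reads, and the fewest such reads were taken for depth, floors, and the voom alternative. For the 2070 genes above 0 in fewer than 4 libraries, 98 of them tested, the match can arise by chance and the reads are too few, as for COCH and TFF3. No column of per-sample values was left unused.

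Genes reaching 1 TPM in 2 or more of 14 libraries (13540 of 19410) were fitted with limma 3.58.1 in R 4.3.3 on log2(TPM + 0.5), with 7 group means and a trend in the prior variance. Contrasts were the mean of 6 lines against the parental culture, each line, and F tests among lines and genotypes. Calls required a Benjamini-Hochberg adjusted p under 0.05 and a 1.5-fold difference. The pipeline was tested on simulated data. Arms and positions came from GENCODE on GRCh37 and promoters from RefSeq on GRCh38.p14. Of the gene names, 28 had turned into dates and were not named.

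Members and lists were chosen with earlier results of these data known. Named genes were the 4 targeted genes, the 14 lower and 14 higher genes called in every line with the largest change in their least changed line, up to 4 called members with the largest mean difference in each list, and the 6 genes the study follows. Genes outside this rule are said to be chosen after their values were seen, or are markers, neighbors, and reference genes. Alternatives were other pseudocounts, filters, scalings, fold minimums, and models, subtraction of the running median of 51 neighboring genes, a replicate block, and leaving out libraries, genotypes, or arms. Same-numbered libraries of different groups had correlated deviations between -0.07 and 0.08 over 21 pairs, so the numbers were not taken to pair them. A result on an item withheld from this text is not reported here.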

Additional observations from a re-analysis of the deposited data

Results flagged for a closer look

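The 3 genotypes differed at least 4-fold from each other for 17 of the 106 named genes, by an F test among genotypes in limma with adjusted p between 4.7e-14 and 1.83e-07. Each range below is the distance on the log2 scale between the highest and lowest genotype mean, where a genotype mean is its difference from the parental culture.

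MLL1-KO lines stood apart for most of them. BMP2 had a range of 5.81, with 4.98 in MLL1-KO against -0.68 in SAP30-KO and -0.84 in SIN3A+SIN3B-DKO lines. CSF3 had a range of 4.51, with 4.11 in MLL1-KO lines, AKR1C1 of 3.06, with 3.03, and TNC of 2.84, with 4.01. ENG had a range of 5.01, at 0.23 in MLL1-KO and -4.78 in each of the other genotypes, and PDGFB of 2.12, at 0.35 against -1.77 and -1.72. AGR2 had a range of 5.65 and was lowest in MLL1-KO lines, at -8.39, as were ANKRD1 (range 2.78, -3.09), OAS1 (range 3.63, -3.00), TEAD2 (range 2.26, -1.99), MX1 (range 2.07, -1.95), and DUSP1 (range 2.01, -2.14).

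For the other genes another genotype was extreme. SAP30, the targeted gene, had a range of 4.56, at -4.32 in SAP30-KO lines. CST2 had a range of 2.47 and was highest in SAP30-KO lines, at 3.88. IL24 had a range of 3.33 and was highest in SIN3A+SIN3B-DKO lines, at 4.45. CA9 had a range of 2.66 and TAGLN of 2.53, with SIN3A+SIN3B-DKO lines at -0.46 and 0.26 against 2.20 and -2.28 in SAP30-KO lines. The cause of these differences was not tested.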

How the results depend on the processing

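Counts stayed within 1.5 times of 1168 lower and 726 higher genes under other pseudocounts, filters, and scalings, with these exceptions. A 2-fold minimum gave 511 and 194, no fold minimum 4175 and 3730, and line means as the unit 93 and 23. In every line, a 2-fold minimum gave 186 lower and 26 higher, and no fold minimum 1271 and 853, against 362 and 128. Genes higher in every line were 201 after quantile normalization, 246 without the SIN3A+SIN3B-DKO lines, and 366 without the MLL1-KO lines, since fewer lines then had to agree in the last 2 settings. Genes that differed among lines were 2611, 11056, and 1751 with a 2-fold minimum, no minimum, and no MLL1-KO lines, against 5644. Without MLL1-KO lines the mean calls were 982 lower and 892 higher. Leaving out 1 library gave 1089 to 1208 lower and 701 to 753 higher, and 349 to 365 and 115 to 141 in every line. The replicate block gave 1169 and 728, and 362 and 126 in every line. Limma voom on recovered reads gave 1231 and 847, with COCH and TFF3 at -1.71 each on reads that were not fixed. Without the genes of 11q, 16q, and Xq, chosen after seeing the data, 961 and 608 were called, and 308 and 100 in every line.

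Of 3048 named-gene values under the alternatives, 2879 kept direction and call, 162 lost the call, 2 gained it, and 5 reversed. Of 1566 counts over gene lists, 1359 stayed within 1.5 times. Reversed values were SAP30 at 0.03 without SAP30-KO lines, OAS1 at 0.08, CSF3 at -0.02, and BMP2 at -0.76 without MLL1-KO lines, and BMP2 at -0.21 with voom. ATM, CXCL1, NDUFA1, and COX7B lost the call without Parental replicate 1, and OSGIN1 and HMOX1 without Parental replicate 2. Depth limits the genes with few reads, and the 2 parental libraries of 1 culture limit every comparison.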
